A study of Mus musculus with 12 samples.

Results

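The genes described here are the 40 mouse genes that build, modify and carry heparan sulfate, chosen by their symbols from the count tables of dorsolateral geniculate nucleus (dLGN), the thalamic relay of vision, in *Sox2* and *Nr2f1* thalamic mutants. All 40 were listed among the 24480 genes of both tables, and they were 5 linker enzymes, 5 chain polymerases, 4 N-deacetylase/N-sulfotransferases, 2 enzymes of epimerisation and 2-O-sulfation, 3 6-O-sulfotransferases, 7 3-O-sulfotransferases, 2 sulfatases that remove 6-O-sulfate, 4 syndecans, 6 glypicans and 2 secreted core proteins. *Sox2* mutants were Sox2flox/flox;Ror-alphaCre mice and were compared with Sox2flox/flox or Sox2flox/+ littermates without Cre. *Nr2f1* mutants were Nr2f1 flox/flox;Ror-alphaCre mice and were compared with littermates without Cre, for which the study's methods give Nr2f1 flox/flox or flox/+ whereas the labels write the Cre allele and "no Cre" together. Cre was inserted behind the *Rora* coding sequence and deletes in postmitotic cells of the sensory thalamus, so cells that never expressed it kept both alleles, and deletion and the Cre allele itself cannot be told apart in these groups. Each of the 12 libraries, 3 for each of the 4 groups, was made from the dLGNs of 3 pups of 1 genotype pooled at P0, and 39293465 to 50095344 counts were assigned to genes. The targeted genes were lower in every mutant library. *Sox2* was at 361 to 382 CPM (counts scaled to the size of each library after TMM normalization) in *Sox2* controls and at 116 to 152 CPM in *Sox2* mutants, and *Nr2f1* was at 311 to 380 CPM in *Nr2f1* controls and at 101 to 151 CPM in *Nr2f1* mutants. *Sox2* was also a DEG in *Nr2f1* mutants, at 343 to 374 CPM in controls and 212 to 279 CPM in mutants (log2 fold change -0.55, edgeR FDR = 0.00635). In these bulk samples, fewer cells of a type and less RNA per cell cannot be told apart.

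Heparan sulfate is a sugar chain built in the Golgi on a serine of a core protein. A linker is laid down, the chain is polymerised from alternating N-acetylglucosamine and glucuronic acid, and sulfotransferases then decorate it at the N, 2-O, 6-O and 3-O positions. The pattern of sulfate decides which growth factors, guidance cues and synaptic proteins the chain can bind, among them FGF, SLIT and WNT proteins, and 6-O-sulfate is also trimmed outside the cell by the SULF enzymes. Syndecans span the membrane, glypicans are held to it by a lipid anchor, and perlecan and agrin are secreted into the matrix.

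In both mutants most DEG were 6-O- or 3-O-sulfotransferases, 5 of 7 in *Sox2* mutants and 4 of 6 in *Nr2f1* mutants. In *Sox2* mutants all 3 6-O-sulfotransferases and 2 of the 6 tested 3-O-sulfotransferases were downregulated, by 0.90 to 2.24 on the log2 scale. In *Nr2f1* mutants *Hs6st1*, *Hs6st3* and *Hs3st5* were downregulated as well, whereas *Hs6st2* and *Hs3st1* did not pass the threshold and *Hs3st4* was upregulated. Genes for the linker, the backbone, N-sulfation and 2-O-sulfation gave 1 called gene in each line.

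Counts were tested with edgeR's quasi-likelihood F-test against the controls of the same line, and a gene was called a DEG when its Benjamini-Hochberg adjusted p-value (FDR) over all genes tested was below 0.01. In *Sox2* mutants 7 of the 39 tested members were DEG (17.9%), against 8.08% of all 15602 genes tested. All 7 were downregulated, against 4.19% of all genes called in that direction. None was upregulated by this test, with 10 members higher at an unadjusted p below 0.05 and 3 (*Gpc6*, *Sdc4* and *Sulf1*) called higher by DESeq2 and by edgeR's likelihood ratio and exact tests. With the replicate number as a block these 3 and *Gpc3* were upregulated as well, and at an adjusted p below 0.05 these 3 and *Sulf2*. In *Nr2f1* mutants 6 of 39 were DEG (15.4%), against 2.54% of 15600 genes, and 5 of the 6 were downregulated, against 1.32% of all genes. The libraries of mutants and controls did not overlap for 17 of the 39 members (43.6%) in *Sox2* mutants and for 14 (35.9%) in *Nr2f1* mutants, where 37.9% and 28.6% of all genes had such a separation, so the members stood near the background by this measure. The median log2 fold change of the members was -0.10 in *Sox2* mutants and -0.01 in *Nr2f1* mutants, beside 0.00 and 0.01 over all genes. *Hs3st6* was not tested in either line, since 1 count in an *Nr2f1* mutant library was its only count.

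**Figure D1:**
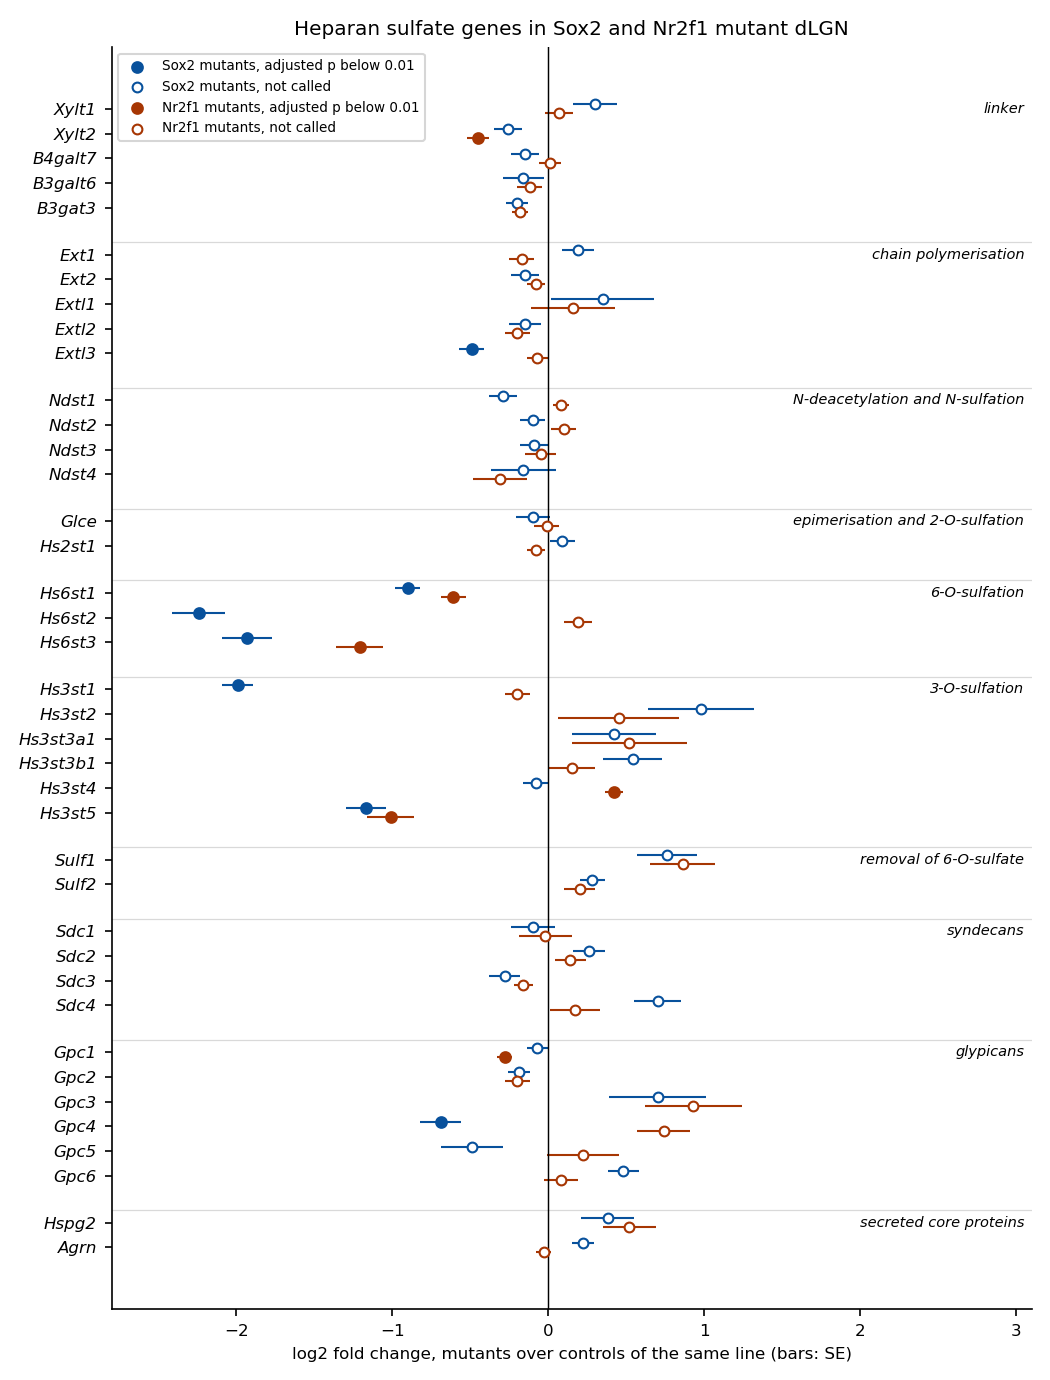
Log2 fold change of the 39 tested members, mutants over controls of the same line, grouped by step, with the SE as bars. Blue points are *Sox2* mutants and brown points *Nr2f1* mutants, and filled points are DEG. The 3 6-O-sulfotransferases, *Hs3st1* and *Hs3st5* lie farthest to the left in *Sox2* mutants, at -0.90 to -2.24.

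The calls of the *Nr2f1* line were less firm than those of the *Sox2* line. Without library CTRL_B or library MUT_A none of the 6 passed edgeR's test, with 8 members lower and 3 higher at an unadjusted p below 0.05 without CTRL_B, and 7 lower and 5 higher without MUT_A. Calls over all genes fell too, from 396 of 15600 to 144 of 15829 without CTRL_B and 133 of 15780 without MUT_A. With all libraries DESeq2 called 7 members and edgeR's likelihood ratio test 8. MUT_A was the library with no male-specific transcripts, and with male-specific genes as a covariate none of the 6 passed edgeR's test either, with 7 members lower and 6 higher at an unadjusted p below 0.05. Over all genes that covariate left 84 of 15600 called. In the *Sox2* line 5 of the 7, the 6-O-sulfotransferases, *Hs3st1* and *Hs3st5*, were DEG in all 17 alternative settings.

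The 6-O-sulfotransferases add sulfate to the 6-O position of glucosamine, and all 3 mouse genes were well expressed in control dLGN. *Hs6st1* (chr1:36068400-36106446, + strand, GRCm38) was the most abundant. In the *Sox2* line it was at 459, 454 and 392 CPM in the controls and at 236, 230 and 236 CPM in the mutants. The mutant libraries lay close together and well below every control (435 ± 37.2 and 234 ± 3.4 CPM, mean ± SD, n = 3), a log2 fold change equal to -0.90 (edgeR FDR = 0.00011, SE 0.08). *Hs6st1* in the *Nr2f1* line was at 439, 446 and 489 CPM in the controls and at 292, 340 and 269 CPM in the mutants. The groups did not overlap here either, and mutants were at 65.6% of the control mean (log2 fold change -0.61, edgeR FDR = 0.00303, SE 0.08). This call was lost when CTRL_B, CTRL_D, CTRL_E or MUT_A was left out, with FDR of 0.0135, 0.0131, 0.0136 and 0.0235 and log2 fold changes of -0.64, -0.63, -0.56 and -0.59. An antisense transcript, Gm37335, shares 8.64% of the 75-base stretches of *Hs6st1*, and the sources used here do not say whether counting used the strand.

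*Hs6st3* (chr14:119138341-119869815, + strand) was the least abundant of the 3. It was at 46.6, 41.8 and 29.1 CPM in the *Sox2* controls and at 9.35, 11.0 and 10.4 CPM in the *Sox2* mutants. All mutants lay below the lowest control, at 26.2% of the control mean, with a log2 fold change of -1.93 (edgeR FDR = 0.000103, SE 0.16). Its level in the *Nr2f1* line was 48.8, 48.0 and 54.0 CPM in the controls and 22.2, 26.7 and 16.3 CPM in the mutants. Here too the groups were apart, at 43.2% of the control mean and a log2 fold change of -1.21 (edgeR FDR = 0.00165, SE 0.15). Without CTRL_B its FDR was 0.01 after rounding, and without MUT_A it was 0.0129, with log2 fold changes of -1.23 and -1.22.

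*Hs6st2* (chrX:51387212-51681856, - strand), whose product has the same activity, separated the mutants. Controls of the *Sox2* line were at 273, 263 and 206 CPM and mutants at 45.5, 67.4 and 44.3 CPM. This was the largest fold change of any member in either line, with the mutants at 21.2% of the control mean (log2 fold change -2.24, edgeR FDR = 5.34e-05, SE 0.17). Controls of the *Nr2f1* line were at 280, 256 and 294 CPM and mutants at 347, 329 and 271 CPM. These groups overlapped, and the log2 fold change of 0.19 (95% interval -0.01 to 0.39) was not a DEG (edgeR FDR = 0.225). The change in *Sox2* mutants was lower than that in *Nr2f1* mutants by 2.42 on the log2 scale (interaction of line and genotype, edgeR FDR = 2.47e-05, SE 0.21), and 3 members (7.69%) passed this test, against 1.44% of 15989 genes. *Hs6st2* is X-linked, and the summed CPM of 4 male-specific genes was 33.6 to 114 in *Sox2* controls, 54.3 to 110 in *Sox2* mutants, 43.6 to 97.4 in *Nr2f1* controls and 0 to 52.1 in *Nr2f1* mutants. With those genes as a covariate the change in *Sox2* mutants was -2.24 (FDR = 0.000238) and the difference between the mutants -2.32 (FDR = 0.000274). The female-specific *Xist* was at 0.189 to 579 CPM in *Sox2* controls and 0.463 to 307 CPM in *Sox2* mutants. In the *Nr2f1* line it was at 0.283 to 484 CPM in controls and 506 to 1150 CPM in mutants, which did not overlap (log2 fold change 1.34, not a DEG). *Xist* was not used as a covariate.

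The 3-O-sulfotransferases place the rarest sulfate of the chain, and the 7 genes differ in the site they make. *Hs3st1* (chr5:39613935-39755475, - strand) encodes the enzyme known for making the antithrombin-binding site and was the most abundant per length. *Sox2* controls were at 99.0, 98.1 and 81.8 CPM and *Sox2* mutants at 22, 26.1 and 21.9 CPM. The mutants were at 25.1% of the control mean, with a log2 fold change of -1.99 (SE 0.10) and the smallest FDR of any member, 1.22e-05 by edgeR. *Hs3st1* in the *Nr2f1* line was at 94.2, 88.6 and 105 CPM in the controls and at 88.5, 87.9 and 75.2 CPM in the mutants. The lowest control lay just above the highest mutant, and the log2 fold change of -0.20 (95% interval -0.38 to -0.01) was not a DEG (edgeR FDR = 0.177). The changes in the 2 mutants differed by -1.79 on the log2 scale (edgeR FDR = 1.08e-05, SE 0.14).

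*Hs3st5* (chr10:36506814-36834397, + strand), whose product can make both the antithrombin-binding and the herpes glycoprotein D-binding site, was downregulated in both mutants. *Sox2* controls were at 30.7, 27.1 and 21.5 CPM and *Sox2* mutants at 10.8, 12.5 and 12 CPM. *Nr2f1* controls were at 25.6, 24.7 and 18.8 CPM and *Nr2f1* mutants at 9.74, 13.6 and 10.9 CPM. The groups were apart in both lines, and *Sox2* mutants had a log2 fold change of -1.17 (edgeR FDR = 0.000468, SE 0.13). That of *Nr2f1* mutants was -1.01 (edgeR FDR = 0.00394, SE 0.15). The difference between them was -0.15 (95% interval -0.61 to 0.32, edgeR FDR = 0.821), an interval that leaves room for unequal changes. In *Nr2f1* mutants the call was lost without CTRL_B, CTRL_D, MUT_A or MUT_C, at FDR of 0.0231, 0.0217, 0.0236 and 0.0154.

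*Hs3st4* (chr7:123982869-124398989, + strand), a neuronal member, was the only one of the 39 called higher in either line by the main test, edgeR's quasi-likelihood F-test. *Nr2f1* controls were at 65.5, 68.5 and 70.8 CPM and *Nr2f1* mutants at 97.0, 89.2 and 88.4 CPM. Every mutant exceeded every control, with a log2 fold change of 0.42 (edgeR FDR = 0.00257, SE 0.06), and the call was lost without CTRL_B, CTRL_D or MUT_A (FDR = 0.0156, 0.013 and 0.0156). In the *Sox2* line it was at 72.4, 71.5 and 69.7 CPM in the controls and at 69.1, 72.6 and 60.3 CPM in the mutants, which overlapped (log2 fold change -0.08, 95% interval -0.26 to 0.10, edgeR FDR = 0.501). Between the mutants the change differed by -0.50 (edgeR FDR = 0.011, SE 0.10), which missed the threshold.

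The remaining 3-O-sulfotransferases were low. *Hs3st3b1* was at 8.93, 10.2 and 10.1 CPM in the *Sox2* controls, 12.6, 10.9 and 18.9 CPM in the *Sox2* mutants, 7.37, 9.31 and 6.39 CPM in the *Nr2f1* controls and 7.73, 8.54 and 9.42 CPM in the *Nr2f1* mutants. The *Sox2* mutants lay above their controls without passing the test (log2 fold change 0.54, edgeR FDR = 0.0701). *Hs3st2* was at 1.15, 1.25 and 0.839 CPM and at 2.87, 1.17 and 2.39 CPM in the controls and mutants of the *Sox2* line, and at 0.856, 1.14 and 0.718 CPM and at 1.18, 0.628 and 1.91 CPM in those of the *Nr2f1* line. *Hs3st3a1* was at 1.38, 1.21 and 1.26 CPM and at 1.53, 1.28 and 2.32 CPM in the *Sox2* line, and at 1.26, 0.957 and 0.739 CPM and at 0.979, 0.997 and 2.24 CPM in the *Nr2f1* line. Neither gene was a DEG in either line, with log2 fold changes of 0.98 for *Hs3st2* and 0.42 for *Hs3st3a1* in *Sox2* mutants (edgeR FDR = 0.0701 and 0.3) and 0.45 and 0.52 in *Nr2f1* mutants (edgeR FDR = 0.525 and 0.434), and *Hs3st2* in *Sox2* mutants was called with fibroblast markers as a covariate. In all, 40.4% of the 75-base stretches of *Hs3st3a1* are shared with other genes, 31.6% with an overlapping antisense gene. Of the stretches of *Hs3st3b1*, 7.05% are shared with *Hs3st3a1*.

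**Figure D2:**
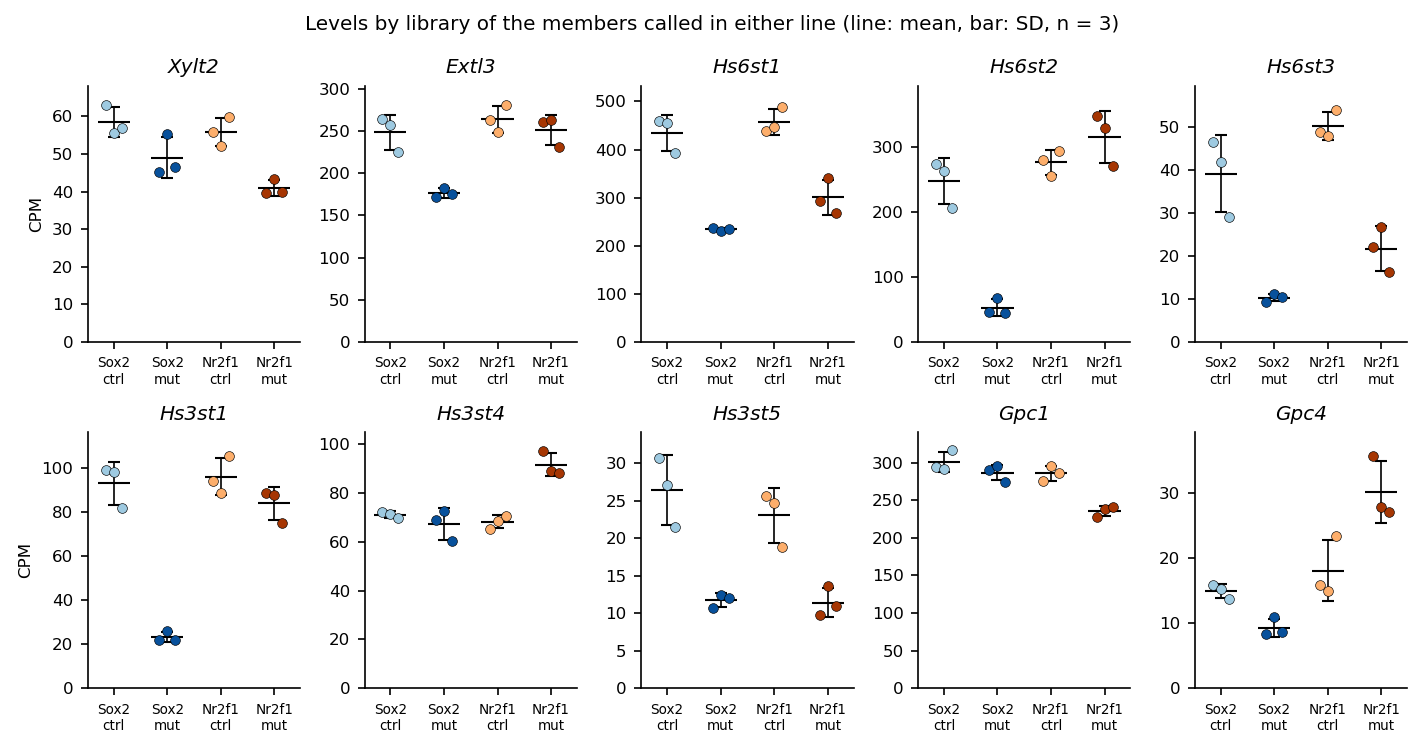
CPM in each library (points) of the 10 members called in either line, with the mean (line) and SD (bar) of the 3 libraries of a group. *Hs6st2* and *Hs3st1* are at 21.2% and 25.1% of the control mean in *Sox2* mutants and at 114% and 87.4% in *Nr2f1* mutants, whereas *Hs6st1*, *Hs6st3* and *Hs3st5* are lower in both.

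The members downregulated in both mutants were *Hs6st1*, *Hs6st3* and *Hs3st5*, and the 250 bases before their RefSeq start sites are shown because these genes moved in the same direction in both lines. The windows are from GRCm38.p6, on the + strand and written 5′ to 3′, and lie at chr1:36068150-36068399, chr14:119138015-119138264 and chr10:36506557-36506806. Letters are in lower case, since capitals were kept for matches to ACAAAG or ACAAT (cores of SOX sites) or to AGGTCA (a nuclear receptor half-site), sought on both strands, and these windows held 0 matches.
Hs6st1: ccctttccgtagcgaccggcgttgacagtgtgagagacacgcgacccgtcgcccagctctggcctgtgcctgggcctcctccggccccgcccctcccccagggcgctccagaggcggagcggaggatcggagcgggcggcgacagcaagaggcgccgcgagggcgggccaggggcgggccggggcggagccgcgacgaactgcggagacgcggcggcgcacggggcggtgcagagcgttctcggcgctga
Hs6st3: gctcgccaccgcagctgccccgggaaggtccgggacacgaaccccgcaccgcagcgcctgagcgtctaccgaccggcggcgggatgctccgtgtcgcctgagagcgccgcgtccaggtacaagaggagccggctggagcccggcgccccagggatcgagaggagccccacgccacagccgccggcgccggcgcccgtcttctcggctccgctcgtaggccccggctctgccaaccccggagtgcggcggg
Hs3st5: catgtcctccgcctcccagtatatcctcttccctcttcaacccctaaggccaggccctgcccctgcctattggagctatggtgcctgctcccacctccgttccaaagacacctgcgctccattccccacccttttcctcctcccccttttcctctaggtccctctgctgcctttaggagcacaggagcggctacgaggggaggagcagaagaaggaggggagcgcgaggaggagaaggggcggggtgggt
Among 32851 promoter windows of the same length, 16.5% held ACAAAG, 27.7% ACAAT and 14.0% AGGTCA. The G and C content of these windows was 76.4%, 76.0% and 62.0%. The absence of these letters describes these windows only and bears on no factor.

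To compare members with each other, CPM was divided by the length of 1 transcript per gene in kb. Per length, *Sdc3* was the most abundant member in the controls of both lines (372 ± 54.1 CPM per kb in *Sox2* controls and 406 ± 6.34 in *Nr2f1* controls, mean ± SD, n = 3), followed by *Agrn* (123 ± 5.2 and 116 ± 4.78) and *Hs6st1* (117 ± 9.99 and 123 ± 7.29), which changed places between the lines and did not differ beyond their spread. *Hs6st2* (56.9 ± 8.24 and 63.5 ± 4.43) and *Hs3st1* (55.2 ± 5.75 and 57.0 ± 5.05) were within each other's spread in the *Sox2* line, and *Extl3* and *Ndst1* came after them. The genes downregulated in *Sox2* mutants included the 3 most abundant sulfotransferase genes of the last steps.

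Summed per length, the 6-O-sulfotransferases were at 213, 207 and 170 CPM per kb in the *Sox2* controls and at 79.4, 83.8 and 79.6 in the *Sox2* mutants. The mutant sum was 41.2% of the control mean. The sum in the *Nr2f1* line was 211, 207 and 231 CPM per kb in the controls and 171, 183 and 144 in the mutants, 76.7% of the control mean. The groups did not overlap in either line, and with 3 libraries against 3 no exact permutation test of a single value can give a two-sided p below 0.1. The make-up of the sum also differed between the lines. *Hs6st1* made up 59.6% ± 2.16 (SD, n = 3) of it in *Sox2* controls and 77.7% ± 3.41 in *Sox2* mutants, while *Hs6st2* went from 28.8% ± 0.814 to 14.8% ± 3.18. In the *Nr2f1* line *Hs6st1* went from 57.0% ± 1.05 to 48.7% ± 2.45 and *Hs6st2* from 29.4% ± 1.05 to 43.7% ± 2.64.

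For the 3-O-sulfotransferases the sum was 94.2, 92.4 and 80.1 CPM per kb in the *Sox2* controls and 42.4, 45.4 and 41.3 in the *Sox2* mutants, 48.4% of the control mean. In the *Nr2f1* line it was 87.0, 84.7 and 92.6 in the controls and 88.5, 86.9 and 79.3 in the mutants, and these groups overlapped. The leading gene of this step changed in *Sox2* mutants. *Hs3st1* made up 62.0% ± 1.25 of the sum in the controls and 32.1% ± 1.78 in the mutants, and *Hs3st4* 25.2% ± 1.79 and 49.0% ± 2.89, although the level of *Hs3st4* itself overlapped between the groups. In *Nr2f1* mutants *Hs3st1* was still the leading gene per length (64.6% ± 2.72 in controls and 58.6% ± 2.02 in mutants), although without the division by length *Hs3st4* led there (46.2% ± 1.59, against 42.3% ± 2.02 for *Hs3st1*). The share per length of *Hs3st5* was 8.55% ± 1.69 in controls and 4.38% ± 0.756 in mutants.

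**Figure D3:**
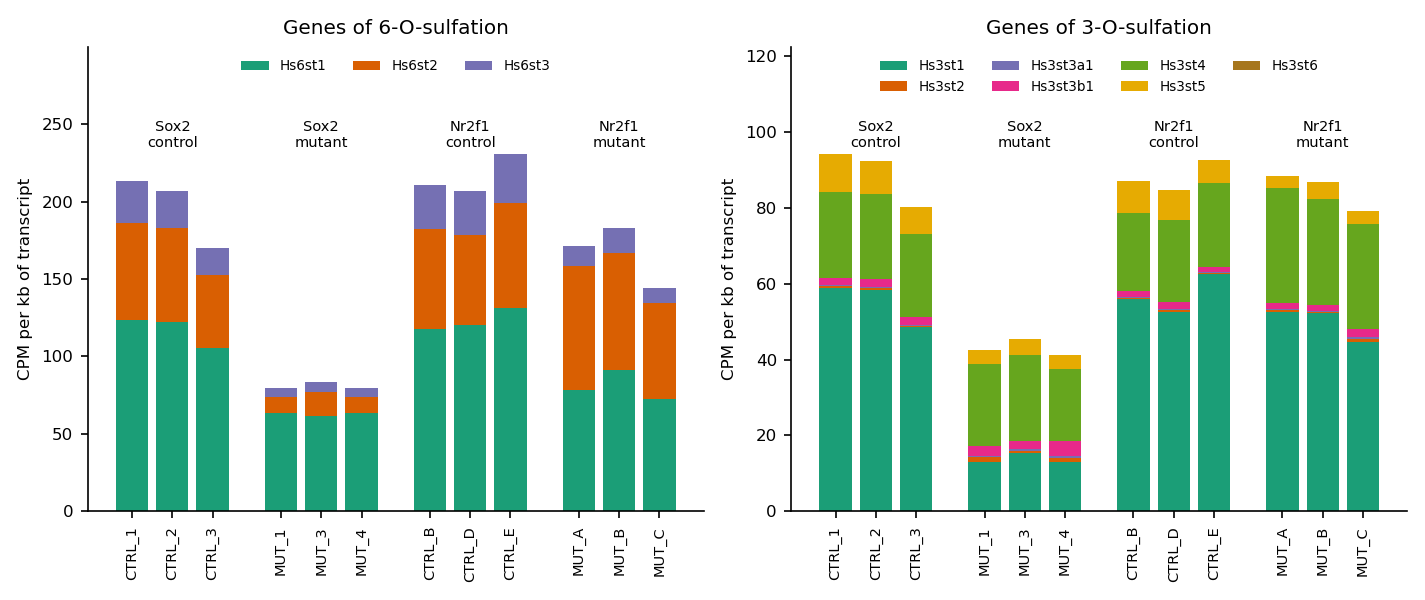
Stacked CPM per kb of transcript of the 6-O-sulfotransferases (left) and 3-O-sulfotransferases (right) in each of the 12 libraries, with colours for the genes. In *Sox2* mutants both sums are lower, at 41.2% and 48.4% of the control mean, and in *Nr2f1* mutants the first is at 76.7% and the second at 96.4%.

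*Sulf1* and *Sulf2* encode the endosulfatases that remove 6-O-sulfate from finished chains. *Sulf1* was at 14.9, 13.5 and 19.4 CPM in the *Sox2* controls and at 20.4, 34.6 and 26.1 CPM in the *Sox2* mutants, and at 10.9, 13.7 and 13.7 CPM in the *Nr2f1* controls and 22.1, 16.2 and 31.2 CPM in the *Nr2f1* mutants. Mutants lay above controls in both lines, but the log2 fold changes of 0.76 and 0.86 were not DEG (edgeR FDR = 0.0221 and 0.0358). *Sulf2* had log2 fold changes of 0.28 and 0.20 (edgeR FDR = 0.0313 and 0.233). The 2 sulfatases gave 0 calls by edgeR's main test in each line, with 2 of 2 higher at an unadjusted p below 0.05 and 1 called by DESeq2 in *Sox2* mutants, and 1 and 0 in *Nr2f1* mutants. *Sulf1* was called higher by edgeR's likelihood ratio and exact tests in both lines. In *Sox2* mutants it was also called with the replicate number as a block and without CTRL_3 or MUT_1, and in *Nr2f1* mutants without MUT_B. The ratio of the 6-O-sulfotransferase sum to the sulfatase sum, both per length, was 10.1, 10.6 and 8.44 in *Sox2* controls and 3.28, 2.87 and 3.26 in *Sox2* mutants, and 11.2, 9.48 and 11.3 in *Nr2f1* controls and 7.29, 8.5 and 4.83 in *Nr2f1* mutants. It was lower in every mutant than in every control of its line.

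Markers of meningeal and perivascular fibroblasts moved with *Sulf1*. Their summed CPM (*Col1a1*, *Col1a2*, *Col3a1*, *Dcn*, *Lum*, *Pdgfra* and *Slc6a13*) was 1080, 1070 and 2000 in the *Sox2* controls CTRL_1, CTRL_2 and CTRL_3 and 1590, 3390 and 1890 in the mutants MUT_1, MUT_3 and MUT_4, and 826, 1150 and 1210 in the *Nr2f1* controls CTRL_B, CTRL_D and CTRL_E and 2070, 1150 and 2510 in the mutants MUT_A, MUT_B and MUT_C. None of the 7 was a DEG by edgeR in either line, with 4 and 6 higher at an unadjusted p below 0.05 and 1 and 0 called by DESeq2. *Gpc3* and *Hspg2* (perlecan, a basement membrane proteoglycan) ordered the libraries in nearly the same way. *Hs6st1* was lower where the markers were higher among *Nr2f1* mutants, at 340, 292 and 269 CPM for 1150, 2070 and 2510. The *Sox2* control with markers at 2000 had 392 CPM of *Hs6st1*, against 459 and 454 CPM in the others, while *Nr2f1* controls ran the other way, from 439 to 489 CPM for 826 to 1210. A covariate of these markers was chosen after the data were seen, and the part of fibroblasts in the changes was not tested. With these markers as a covariate the log2 fold change of *Sulf1* was 0.34 in *Sox2* and 0.23 in *Nr2f1* mutants, that of *Gpc3* -0.04 and -0.20 in place of 0.70 and 0.93, and that of *Hspg2* 0.02 and -0.07 in place of 0.38 and 0.52. *Hs6st1*, *Hs6st2*, *Hs6st3*, *Hs3st1* and *Hs3st5* remained DEG in *Sox2* mutants with this covariate (log2 fold changes of -0.81, -2.35, -1.78, -1.99 and -1.09), as did *Gpc4* (-0.77, FDR = 0.00858). *Extl3* lost its call (-0.45, FDR = 0.0101), and *Hs3st2* became a DEG in the higher direction (1.56 in place of 0.98, FDR = 0.00449). In *Nr2f1* mutants none of the 6 was a DEG with this covariate, with log2 fold changes of -0.47 for *Hs6st1*, -0.94 for *Hs6st3* and -0.70 for *Hs3st5* (FDR = 0.0712, 0.0254 and 0.0882). That covariate left 7 members lower and 3 higher at an unadjusted p below 0.05 in *Nr2f1* mutants. Over all genes it left 78 of 15600 called there, against 396 without it.

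**Figure D4:**
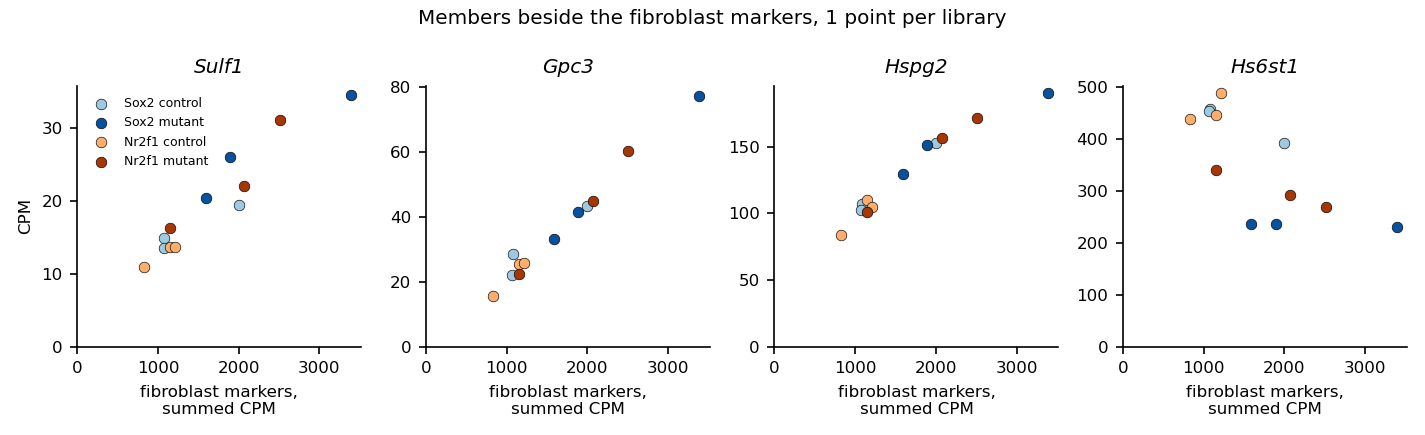
CPM of *Sulf1*, *Gpc3*, *Hspg2* and *Hs6st1* against the summed CPM of the fibroblast markers, 1 point per library, coloured by group. *Sulf1*, *Gpc3* and *Hspg2* rank the libraries much as the markers do, with the *Sox2* mutant MUT_3 highest in all 3, whereas *Hs6st1* is at 230 to 236 CPM in *Sox2* mutants whose markers are at 1590 to 3390 and at 340, 292 and 269 CPM in *Nr2f1* mutants whose markers are at 1150, 2070 and 2510.

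The linker is started on serine by the xylosyltransferases encoded by *Xylt1* and *Xylt2* and extended by the products of *B4galt7*, *B3galt6* and *B3gat3*. *Xylt2* (chr11:94663851-94677515, - strand) was downregulated in *Nr2f1* mutants, from 55.7, 52.1 and 59.8 CPM in the controls to 39.5, 43.3 and 39.9 CPM in the mutants (log2 fold change -0.45, edgeR FDR = 0.00526, SE 0.07). In *Sox2* mutants it was at 45.2, 55.3 and 46.5 CPM, below the 63.0, 55.5 and 57.0 CPM of the controls, and was not a DEG (log2 fold change -0.26, edgeR FDR = 0.0795). The *Nr2f1* call was lost without CTRL_B, CTRL_E, MUT_A or MUT_C (FDR = 0.025, 0.0215, 0.0345 and 0.0221). The changes of *Xylt2* in the mutants differed by 0.20 (edgeR FDR = 0.46), so they are not shown to differ. The other linker genes lay between -0.20 and 0.30 in *Sox2* mutants and between -0.18 and 0.07 in *Nr2f1* mutants, and the linker step gave 0 calls by edgeR and by DESeq2 in *Sox2* mutants, with 2 of 5 lower at an unadjusted p below 0.05.

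The chain is started by EXTL3 and extended by the EXT1 and EXT2 pair. *Extl3* (chr14:65052060-65149855, - strand) was downregulated in *Sox2* mutants, from 264, 257 and 225 CPM to 171, 182 and 176 CPM. The groups were apart, with a log2 fold change of -0.49 (edgeR FDR = 0.0022, SE 0.08), and the call was lost without CTRL_1, CTRL_2 or MUT_4 (FDR = 0.011, 0.0151 and 0.017) and with fibroblast markers as a covariate (FDR = 0.0101). In the *Nr2f1* line *Extl3* was at 263, 249 and 281 CPM in the controls and at 261, 263 and 231 CPM in the mutants, which overlapped (log2 fold change -0.07, 95% interval -0.22 to 0.08), and the mutants differed by -0.42 (edgeR FDR = 0.035). *Ext1*, *Ext2*, *Extl1* and *Extl2* were not DEG, with log2 fold changes from -0.15 to 0.35 in *Sox2* and from -0.20 to 0.16 in *Nr2f1* mutants. In *Nr2f1* mutants this step gave 0 calls by edgeR and by DESeq2, with 1 of 5 lower at an unadjusted p below 0.05.

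The steps between the backbone and the last sulfates showed no call with all libraries. The 4 *Ndst* genes, whose products replace N-acetyl by N-sulfate and so set where later sulfates can go, had log2 fold changes from -0.29 to -0.09 in *Sox2* mutants and from -0.31 to 0.10 in *Nr2f1* mutants. *Glce*, the epimerase that makes iduronic acid, and *Hs2st1*, the only 2-O-sulfotransferase, were at -0.10 and 0.09 in *Sox2* mutants and at -0.01 and -0.08 in *Nr2f1* mutants. With all libraries edgeR and DESeq2 gave 0 calls for these 6 genes in either line, and 1 (*Ndst1*, in *Sox2* mutants) had an unadjusted p below 0.05. When CTRL_3 was left out, *Ndst1* was called lower in *Sox2* mutants (edgeR FDR = 0.00466). The 95% interval of *Hs2st1* was -0.09 to 0.27 in *Sox2* mutants and -0.21 to 0.06 in *Nr2f1* mutants, against -2.61 to -1.87 for *Hs6st2* in *Sox2* mutants.

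Among the core proteins, 1 of 6 glypicans was called in each line (16.7%). Of all genes tested 8.08% were called in *Sox2* mutants and 2.54% in *Nr2f1* mutants. *Gpc4* (chrX:52053021-52165252, - strand), a lipid-anchored glypican that astrocytes also release and that promotes synapse formation, was downregulated in *Sox2* mutants, from 15.9, 15.3 and 13.8 CPM to 8.35, 10.9 and 8.63 CPM (log2 fold change -0.69, edgeR FDR = 0.00595, SE 0.13). In the *Nr2f1* line it was at 15.8, 15 and 23.5 CPM in the controls and at 35.8, 27.9 and 27.1 CPM in the mutants, higher in every mutant but not a DEG (log2 fold change 0.74, edgeR FDR = 0.0306). It was called higher there in 5 of 16 alternatives. These were DESeq2, edgeR's likelihood ratio and exact tests, an adjusted p below 0.05 and leaving out CTRL_E. The changes in the mutants differed by -1.42 on the log2 scale (edgeR FDR = 0.00393, SE 0.24). The *Sox2* call was lost without CTRL_1, CTRL_2, MUT_1 or MUT_4 (FDR = 0.0331, 0.0292, 0.0205 and 0.0344), with male-specific genes as a covariate (log2 fold change -0.67, FDR = 0.0155) and in a single fit over the 12 libraries (-0.68, FDR = 0.0109). The difference between the mutants was lost without any of 7 of the 12 libraries, at FDR of 0.0134 without CTRL_B, 0.0137 without CTRL_D, 0.0136 without MUT_A, 0.0145 without CTRL_1, 0.014 without CTRL_2, 0.013 without MUT_1 and 0.0161 without MUT_4, and with that covariate (-1.26, FDR = 0.0285).

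*Gpc1* (chr1:92831645-92860779, + strand), an abundant neuronal glypican, was downregulated in *Nr2f1* mutants, from 276, 295 and 286 CPM to 228, 238 and 241 CPM. The groups were apart by a small step (log2 fold change -0.28, edgeR FDR = 0.00853, SE 0.05), and the call was lost without any 1 of the 6 libraries of the line, at FDR between 0.0117 without MUT_B and 0.0561 without MUT_A. In the *Sox2* line it was at 294, 291 and 316 CPM in the controls and at 291, 295 and 275 CPM in the mutants. The changes of *Gpc1* in the mutants differed by 0.22 (edgeR FDR = 0.163), so they are not shown to differ. An antisense gene, *Ankmy1*, shares 22% of the 75-base stretches of *Gpc1*. *Gpc6* and *Sdc4*, a glypican and a syndecan, were higher in every *Sox2* mutant than in every control and just missed the threshold (log2 fold changes 0.48 and 0.70, edgeR FDR = 0.011 and 0.0104). The other glypicans had log2 fold changes from -0.49 (*Gpc5*) to 0.70 (*Gpc3*) in *Sox2* mutants and from -0.20 (*Gpc2*) to 0.93 (*Gpc3*) in *Nr2f1* mutants, and 88.7% of the 75-base stretches of *Gpc2* are shared with an annotated readthrough transcript.

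The syndecans and the secreted core proteins gave 0 calls by edgeR's main test in either line. In *Sox2* mutants 1 syndecan was lower and 2 were higher at an unadjusted p below 0.05, and DESeq2 called 1, *Sdc4*. Across the alternatives *Sdc4* was called higher there in 11 of 17, among them edgeR's likelihood ratio and exact tests. In *Nr2f1* mutants 1 was lower, and DESeq2 called 0. *Sdc3*, the neuronal syndecan, was at 2003, 2009 and 1540 CPM in the *Sox2* controls and 1496, 1600 and 1470 CPM in the mutants, with the control CTRL_3 between the mutants (log2 fold change -0.28, edgeR FDR = 0.0855). When CTRL_3 was left out, *Sdc3* was called lower in *Sox2* mutants (edgeR FDR = 0.00101). *Agrn*, the gene of agrin, which organises the neuromuscular synapse and is also made in brain, had log2 fold changes of 0.22 (edgeR FDR = 0.0558) in *Sox2* and -0.03 in *Nr2f1* mutants. *Hspg2* and *Agrn* were both higher at an unadjusted p below 0.05 in *Sox2* mutants and 1 of them was in *Nr2f1* mutants, with 0 calls by DESeq2. When MUT_B was left out, *Hspg2* was called higher in *Nr2f1* mutants (edgeR FDR = 0.00196).

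Other genes of the pathway were taken from lists of genes that supply precursors, break the chain down or carry it on other proteins. None of 13 genes of precursor and sulfate donor supply was called by edgeR or DESeq2 in either line, with 1 lower and 1 higher at an unadjusted p below 0.05 in each. Of the 2 genes for the linker kinase and phosphatase none was called by edgeR, with 0 in *Sox2* and 1 in *Nr2f1* mutants lower at an unadjusted p below 0.05 and 0 and 1 called by DESeq2. Of 12 tested genes of breakdown and shedding *Hpse*, the gene of heparanase, which cuts the chain, was upregulated in *Sox2* mutants (0.276 ± 0.0184 CPM in controls and 0.932 ± 0.238 CPM in mutants, n = 3, log2 fold change 1.75, edgeR FDR = 0.00722), a gene at low counts. That 1 of 12 is 8.33%, near the 8.08% of all genes. In *Nr2f1* mutants none of the 12 was called by edgeR, with 1 lower and 2 higher at an unadjusted p below 0.05 and 1 called by DESeq2.

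Of 11 other proteins that can carry heparan sulfate, a pair changed in both mutants. In *Sox2* mutants 2 of the 11 were called (18.2%), against 8.08% of all genes tested. In *Nr2f1* mutants 3 of the 11 were called (27.3%), against 2.54%. At an unadjusted p below 0.05, 2 were lower and 7 higher in *Sox2* mutants, and 3 and 7 in *Nr2f1* mutants. *Nrp1*, a receptor for semaphorins and VEGF, was upregulated from 56.2 ± 3.19 to 83.1 ± 5.57 CPM in *Sox2* mutants (log2 fold change 0.56, edgeR FDR = 0.00107) and from 47.7 ± 1.39 to 81.0 ± 8.92 CPM in *Nr2f1* mutants (0.76, FDR = 0.000673). *Nrxn3*, a presynaptic adhesion protein, was downregulated from 144 ± 9.85 to 88.8 ± 5.94 CPM (-0.69, FDR = 0.00036) and from 144 ± 10.8 to 104 ± 3.46 CPM (-0.47, FDR = 0.00214). *Spock1*, a secreted testican, was upregulated in *Nr2f1* mutants (0.49, FDR = 0.00118) whereas its 0.83 in *Sox2* mutants was not a DEG (FDR = 0.0131).

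Markers of the thalamus and of other cell types were read in the same libraries. No marker gene had 0 counts in all 12 libraries. Beside the counts below, 8.08% of all genes tested were called in *Sox2* mutants and 2.54% in *Nr2f1* mutants. A single call among the 7 oligodendrocyte markers is 14.3% of that list. In *Sox2* mutants 3 of 8 thalamic neuron markers were downregulated (*Slc17a6*, *Lef1* and *Prox1*) and 1 upregulated (*Gbx2*), with the summed CPM at 1300 to 1690 in controls and 1370 to 1390 in mutants, and 2 of 6 general neuron markers were downregulated. Of the glial lists, 6 of 7 microglial markers (130 to 143 CPM in controls and 266 to 308 in mutants) and 5 of 7 astrocyte markers (1770 to 2130 and 2690 to 3100) were upregulated in *Sox2* mutants, and their part in the results above was not tested. *Mbp* of 7 oligodendrocyte markers and *Otx2* of 4 markers of midbrain-derived interneurons were upregulated as well, and the other 9 lists (GABAergic neurons, endothelium, pericytes, fibroblasts, choroid plexus, red blood cells, dividing cells, male- and female-specific genes) gave 0 calls by edgeR, with 24 of 42 entries higher at an unadjusted p below 0.05 and 6 called by DESeq2. In *Nr2f1* mutants the calls were *Prox1* and *Cdh6* (up) and *Lef1* (down) among thalamic markers, *Aqp4* among astrocyte and *Mbp* among oligodendrocyte markers, and 12 lists gave 0 calls by edgeR, with 2 lower and 25 higher of 59 entries at an unadjusted p below 0.05 and 1 lower and 7 higher by DESeq2.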

How the data were processed

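RNA-seq was measured in 12 libraries from P0 dLGN, each a pool of 3 animals. Per the study's methods, the authors mapped paired reads of 75 bases with STAR and quantified RefSeq transcripts with RSEM. The labels give build mm10, and the versions of STAR and RSEM are not given in the sources used here. The authors deposited RSEM's expected counts of each gene, not normalized, in 1 table for each line, and these values were used. In all, 7.77% of the values were not whole, and all were rounded before testing. Replicates of a group differed by more than sampling noise (chi-square per degree of freedom 10.4 to 37.9).

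Counts were tested with edgeR 4.0.16 in R 4.3.3 (quasi-likelihood F-test) with TMM normalization, on genes kept by filterByExpr (at least 10 counts in enough libraries and 15 in total). A gene was a DEG at a Benjamini-Hochberg FDR below 0.01 over the genes tested. The SE was taken as the log2 fold change divided by the square root of F. The difference between the mutants was the interaction of line and genotype over the 12 libraries. Levels are CPM, mean ± SD, from 39293465 to 50095344 counts per library. Counting error is small for abundant genes and larger for genes at low counts, such as *Hs3st2* with 29 to 118 counts in a library. Lengths came from 1 GENCODE transcript per gene, shared 75-base stretches from the same annotation, and promoters from RefSeq (GRCm38.p6), with windows for 30 of the 40 members.

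The members and gene lists were chosen with earlier results of these data known. Values in every library are given for members called in a line or in the difference and for the tested 6-O- and 3-O-sulfotransferases, and other members are given by step. Of other lists, genes called in both lines are named, and otherwise the 2 called genes with the smallest p in each line. *Sulf1*, *Sulf2*, *Sdc3* and the members that moved with fibroblast markers were chosen after their values were seen. Alternatives were no filter, DESeq2 1.42.0, edgeR's likelihood ratio and exact tests, upper quartile scaling, 10 or more counts in each library, a single fit over both lines, the replicate number as a blocking factor, male-specific genes as a covariate, an adjusted p below 0.05 and leaving out each library. Fibroblast markers as a covariate were chosen after seeing the data.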

Additional observations from a re-analysis of the deposited data

Results flagged for a closer look

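The change differed between the 2 mutants for 3 members, by the interaction of line and genotype with edgeR's adjusted p below 0.01. For *Hs6st2* the log2 change in *Sox2* mutants less the one in *Nr2f1* mutants was -2.42, with every *Sox2* mutant below and 2 of 3 *Nr2f1* mutants above every control of its line. For *Hs3st1* the difference was -1.79, with every mutant of both lines below the controls of its line. For *Gpc4* it was -1.42, with every *Sox2* mutant below and every *Nr2f1* mutant above the controls of its line. *Hs6st2* and *Gpc4* are X-linked, and male-specific transcripts summed to 0 to 52.1 CPM in the *Nr2f1* mutant pools and to 33.6 to 114 CPM in the other pools. With them as a covariate the differences were -2.32 for *Hs6st2* (FDR = 0.000274), -1.74 for *Hs3st1* (FDR = 0.00011) and -1.26 for *Gpc4* (FDR = 0.0285). The female-specific *Xist* was at 506 to 1150 CPM in *Nr2f1* mutants and 0.283 to 484 CPM in their controls, and its part was not tested.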

How the results depend on the processing

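All called members kept their direction under every alternative that was run (7 of 7 in *Sox2* mutants, 6 of 6 in *Nr2f1* mutants and 3 of 3 for the difference), and 0 results turned between called in one direction and called in the other. Of the 7 DEG of *Sox2* mutants, 5 were called in all 17 alternatives. The number of DEG there was 11 at an adjusted p below 0.05 (7 lower, 4 higher), and 5 (without CTRL_1, CTRL_2 or MUT_4) to 12 (without CTRL_3) with 1 library left out. The 6 DEG of *Nr2f1* mutants became 0 with male-specific genes as a covariate (edgeR, with 7 lower and 6 higher at an unadjusted p below 0.05) and 0 with fibroblast markers as a covariate (7 and 3), and numbered 0 (without CTRL_B or MUT_A) to 8 (without MUT_B) with 1 library left out, with 2 without CTRL_D and 3 without MUT_C. DESeq2 called 7 members there and the likelihood ratio test 8. Over all genes the 396 calls of that line became 84 with the male-specific and 78 with the fibroblast covariate. They became 144 without CTRL_B, 133 without MUT_A and 868 without MUT_B. The 3 members that differed between the mutants became 5 with DESeq2, 5 at an adjusted p below 0.05 and 5 with the likelihood ratio test, adding *Extl3* and *Hs3st4*, and numbered 2 to 4 with 1 library left out. The cause of these shifts was not tested.

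Replicate numbers are shared by 2 pairs in the *Sox2* line and 1 letter in the *Nr2f1* line. With the number as a replicate block the *Sox2* line gave 11 DEG, the same 7 lower and 4 higher (*Gpc3*, *Gpc6*, *Sdc4* and *Sulf1*). Deviations of same-numbered libraries correlated at 0.177 and 0.157 across genes, close to the 0.152 of CTRL_2 with MUT_1, and the sources give no pairing. No paired analysis was possible in the *Nr2f1* line because its groups share 1 letter. In *Sox2* mutants the 95% intervals were wide for genes near 1 CPM (*Hs3st2*, 0.22 to 1.74) and also for *Gpc3* (0.00 to 1.39) at a higher level, and what part depth has in this was not tested.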

Other observations

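Chondroitin sulfate is built on the same linker as heparan sulfate, and of 15 tested genes for its synthesis *Chst3*, a chondroitin 6-O-sulfotransferase, was upregulated in *Sox2* mutants (20.3 ± 1.33 CPM in controls and 32.0 ± 4.51 CPM in mutants, n = 3, log2 fold change 0.65, edgeR FDR = 0.00369), 6.67% of the list against 8.08% of all genes tested. In *Nr2f1* mutants none of the 15 was called by edgeR, with 3 lower and 3 higher at an unadjusted p below 0.05, and DESeq2 called 2 lower and 1 higher. FGF proteins need heparan sulfate to bind their receptors, and of 17 tested ligands and receptors *Fgfr3* (96.5 ± 6.6 and 149 ± 12.1 CPM, log2 fold change 0.63, edgeR FDR = 0.000785) and *Fgfr1* (60.1 ± 1.68 and 83.5 ± 4.93 CPM, 0.48, FDR = 0.00157) were upregulated in *Sox2* mutants. These 2 of 17 are 11.8% of the list, against 8.08% of all genes tested. In *Nr2f1* mutants none of 16 was called by edgeR, with 0 lower and 6 higher at an unadjusted p below 0.05 and 1 called by DESeq2. Astrocyte markers were higher in the same *Sox2* mutant libraries (2690 to 3100 summed CPM, against 1770 to 2130 in controls), and their part in these changes was not tested.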
